A study of Mus musculus with 18 samples.

Results

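The transcripts described here encode 9 chemokine and chemoattractant receptors, Ccr1, Ccr2, Cx3cr1, Cxcr4, Ccrl2, C5ar1, Fpr1, Fpr2 and Cmklr1. They were taken by gene symbol from a table of 18668 genes, and all 9 were among the 12838 genes that reached 0.1 RPKM in 3 or more of 18 libraries. RPKM is a read count scaled to the length of the transcript and the size of the library. The cells were bone marrow-derived macrophages (BMDM), which are marrow cells grown into macrophages in the presence of M-CSF, from C57BL6 mice of 2 genotypes. Apoe-/- mice lack apolipoprotein E, and Apoe-/-/Treml4-/- double knockout (DKO) mice also lack Treml4, a receptor of the TREM family on myeloid cells, so that every library came from Apoe-deficient cells. Cells of each genotype received PBS vehicle (untreated), 10 µg/ml oxidized LDL (oxLDL 10) or 60 µg/ml oxidized LDL (oxLDL 60), with 3 biological replicates in each of the 6 groups. The design text of the series gives 16 h of treatment, and other text of the study gives another time, so the length of the exposure is uncertain. Oxidized LDL is the modified lipoprotein that macrophages take up in atherosclerotic plaques, and the design asks how its dose and the loss of Treml4 change the transcriptome.

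Chemokine receptors are proteins with 7 membrane-spanning segments that couple to inhibitory G proteins and guide cells along gradients of chemokines. Formyl peptide receptors sense N-formylated peptides from bacteria and mitochondria, C5ar1 senses the complement fragment C5a, and Cmklr1 senses the protein chemerin. In atherosclerosis, Ccr2 is known for the entry of classical monocytes into the vessel wall and Cx3cr1 for the patrolling and survival of monocytes and macrophages.

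The libraries held between 39.7 and 54.2 M reads, as recovered from the spacing of low RPKM values. Treml4 stood at 1.86 to 8.39 RPKM in the 9 Apoe-/- libraries, and it was 0 in 8 DKO libraries and 0.0116 RPKM in 1. Transcripts of the disrupted Apoe gene remained at 0.349 to 4.13 RPKM. The summed level of 8 macrophage markers (Adgre1, Csf1r, Cd68, Itgam, Mertk, Fcgr1, Lyz2 and Cd14) was 5560 to 11964 RPKM, against 45.8 to 97.7 RPKM for 11 neutrophil markers and 8.30 to 25.6 RPKM for 5 classical monocyte markers. Lyz2 made up most of the macrophage sum, with group means from 4547 to 8554 RPKM. The summed markers of dendritic cells, lymphocytes, and mast cells with basophils reached at most 0.433, 0.223 and 0.432 RPKM, and those of stromal cells 0.789 to 13.7 RPKM. Xist, which is transcribed from the inactive X chromosome of female cells, stood at 7.25 to 14.5 RPKM in the 6 libraries of Apoe-/- replicate 2 and DKO replicate 3, and at 0.069 RPKM or less in the other 12. Sex therefore differed between animals within each genotype, and results that change without these 6 libraries are given with and without them.

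The promoters of the 4 receptors whose transcripts moved together most closely are shown because a reader may look for shared letters in them. Each stretch runs 5′ to 3′ on the strand of its gene from 250 bases before to 50 bases after the transcription start, and comes from RefSeq on GRCm38.p6, in which all 9 receptors were found. Fpr1 lies at chr17:17883890-17884189 on the minus strand, Fpr2 at chr17:17887574-17887873 on the plus strand, Cx3cr1 at chr9:120068247-120068546 on the minus strand and Ccr2 at chr9:124101933-124102232 on the plus strand. Capitals mark the only match in these 4 to the motifs searched.
Fpr1: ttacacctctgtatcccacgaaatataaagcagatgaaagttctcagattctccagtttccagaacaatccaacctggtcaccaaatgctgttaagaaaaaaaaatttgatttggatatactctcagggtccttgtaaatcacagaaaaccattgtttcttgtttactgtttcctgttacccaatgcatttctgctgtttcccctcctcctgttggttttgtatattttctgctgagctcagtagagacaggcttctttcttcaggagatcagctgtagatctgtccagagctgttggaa
Fpr2: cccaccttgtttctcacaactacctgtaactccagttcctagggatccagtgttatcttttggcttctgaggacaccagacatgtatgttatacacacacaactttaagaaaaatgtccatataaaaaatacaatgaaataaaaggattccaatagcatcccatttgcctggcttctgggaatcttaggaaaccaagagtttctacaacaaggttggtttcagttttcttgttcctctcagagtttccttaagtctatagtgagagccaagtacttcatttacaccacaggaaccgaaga
Cx3cr1: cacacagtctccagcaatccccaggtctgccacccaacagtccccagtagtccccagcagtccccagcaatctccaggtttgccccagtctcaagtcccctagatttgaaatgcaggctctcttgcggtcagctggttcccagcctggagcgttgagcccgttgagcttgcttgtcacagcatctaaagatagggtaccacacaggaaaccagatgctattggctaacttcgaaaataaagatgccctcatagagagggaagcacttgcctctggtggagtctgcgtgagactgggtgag
Ccr2: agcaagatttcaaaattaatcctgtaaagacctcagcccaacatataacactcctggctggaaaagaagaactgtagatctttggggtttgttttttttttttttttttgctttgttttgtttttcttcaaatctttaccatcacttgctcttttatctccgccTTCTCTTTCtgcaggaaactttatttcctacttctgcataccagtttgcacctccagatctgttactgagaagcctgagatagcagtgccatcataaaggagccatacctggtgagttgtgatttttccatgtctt

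The capitals in Ccr2 match the IRF motif GAAANNGAA on the minus strand, 86 bases before the start. Both strands were searched for AGGAAGT (ETS), GAAANNGAA (IRF), TTGCNNAA (C/EBP), TGANTCA (AP-1) and GGNNTTTCC (NF-kB), which occur in 9.35%, 8.56%, 10.8%, 7.81% and 5.82% of 32851 mouse promoters of this length. Among the 11 promoters listed for the 9 receptors, C5ar1 held ETS letters 190 and 72 bases before its start and an overlapping IRF match at 66 bases, and Ccrl2 held NF-kB letters at 68 bases. The start used for Ccr2 lies inside the gene as annotated, chr9:124101918-124109140. Its whole window, with the IRF match, therefore falls within the gene. The starts used for C5ar1 and Cmklr1 also lie inside their annotated genes. None of the 5 motifs was found in the windows of Fpr1, Fpr2 or Cx3cr1. The windows of Fpr1, Fpr2 and Ccr2 held 40.0%, 39.3% and 38.0% G and C with 1 CpG each, below the median of 52.7% and 7 CpG over all promoters, while Cx3cr1 held 54.3% and 5 CpG. Fpr1 and Fpr2 are transcribed away from each other, and their starts are 3885 bp apart (GRCm38/mm10).

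With oxLDL, the formyl peptide receptors, Cx3cr1, Ccr2 and Cmklr1 fell in both genotypes, and C5ar1 decreased by less and was called in DKO cells. Ccrl2 was lower without passing the test in the fit without pairing by animal. With oxLDL 60 it passed in a fit that pairs libraries by animal (limma adjusted p = 0.00146 in Apoe-/- and 0.00063 in DKO cells). Ccr1 and Cxcr4 were not called. A gene was called when its limma adjusted p, by the Benjamini-Hochberg method over 12838 genes, was under 0.05 and its fold at least 1.4. With oxLDL 60 against untreated, 5 of the 9 receptors were called in Apoe-/- cells (Fpr1, Fpr2, Cx3cr1, Ccr2 and Cmklr1) and 6 in DKO cells (the same 5 and C5ar1), all of them lower. Over all genes tested, 13.9% were called in Apoe-/- cells and 12.2% in DKO cells, and 6.78% and 7.31% were called lower. The median log2 fold change of the 9 receptors was -1.31 in Apoe-/- and -1.21 in DKO cells, beside 0.06 and -0.06 over all genes tested. These are levels of RNA per sample, so fewer cells expressing a receptor and less RNA per cell cannot be told apart.

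**Figure D1:**
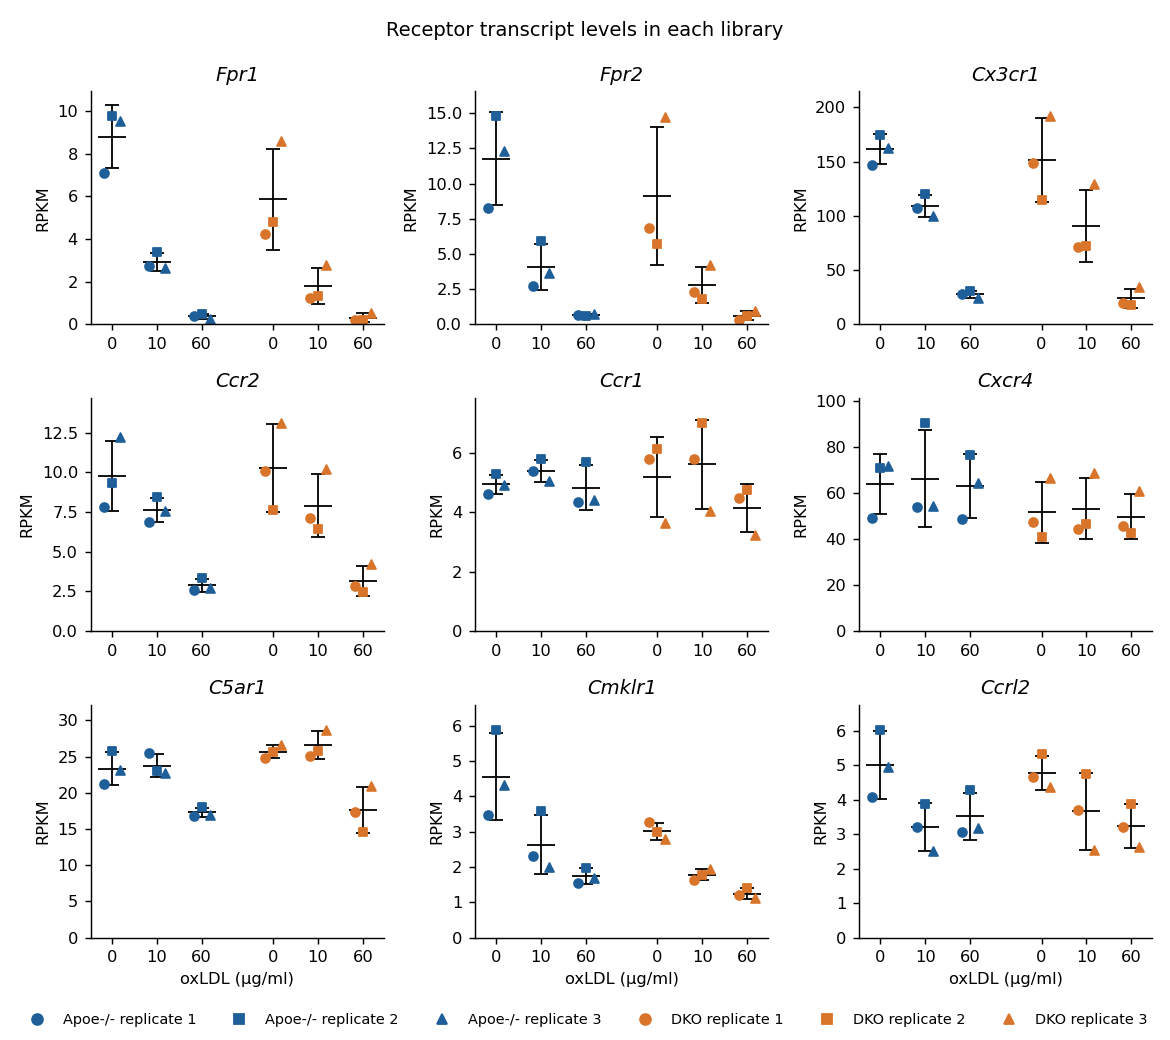
RPKM of each receptor (vertical axes, linear from 0) in all 18 libraries by oxLDL dose in µg/ml, with Apoe-/- in blue and DKO in orange, the marker shape giving the replicate, and bars for the mean ± SD (n = 3). The oxLDL 60 libraries of Fpr1, Fpr2, Cx3cr1, Ccr2, Cmklr1 and C5ar1 lie below all untreated libraries of the same genotype, while those of Ccr1 and Cxcr4 overlap with them.

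Fpr1, the high-affinity formyl peptide receptor of phagocytes, showed the largest change of the 9. In Apoe-/- cells it stood at 7.11, 9.75 and 9.54 RPKM in the untreated libraries, 2.74, 3.42 and 2.66 RPKM with oxLDL 10, and 0.377, 0.503 and 0.265 RPKM with oxLDL 60. In DKO cells it was 4.23, 4.79 and 8.59 RPKM untreated, 1.26, 1.34 and 2.76 RPKM with oxLDL 10, and 0.190, 0.205 and 0.546 RPKM with oxLDL 60. The 3 doses did not overlap in either genotype, and the third DKO replicate was the highest of its genotype at every dose. The mean was 23.1-fold lower with oxLDL 60 in Apoe-/- cells and 18.7-fold lower in DKO cells, log2 fold changes of -4.22 and -3.89 (SE 0.33 each; limma adjusted p = 4.45e-08 and 1.41e-07). With oxLDL 10 the mean was already 2.99-fold lower in Apoe-/- and 3.28-fold lower in DKO cells (log2 fold changes -1.54 and -1.68, SE 0.33 each; limma adjusted p = 0.00907 and 0.00659), and the DKO call was lost with only the compared groups in the fit (adjusted p = 0.0526). It fell further between the doses, with log2 fold changes of -2.68 in Apoe-/- and -2.21 in DKO cells (limma adjusted p = 3.05e-05 and 0.000219). Their size depended on the constant added before taking logs, since with a pseudocount of 1 RPKM the values at oxLDL 60 were -2.82 and -2.34 against untreated and -1.51 and -1.06 against oxLDL 10, and they remained called. The oxLDL 60 values correspond to 27, 30 and 15 reads in Apoe-/- and to 10, 13 and 36 reads in DKO cells.

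Fpr2, which also binds serum amyloid A and annexin A1, followed Fpr1. It stood at 8.26, 14.8 and 12.3 RPKM in untreated Apoe-/- cells, 2.71, 5.92 and 3.64 RPKM with oxLDL 10 and 0.669, 0.616 and 0.722 RPKM with oxLDL 60. The DKO values were 6.88, 5.69 and 14.7 RPKM untreated, 2.33, 1.84 and 4.23 RPKM with oxLDL 10 and 0.349, 0.579 and 0.959 RPKM with oxLDL 60. Here too the doses were separate in each genotype and the third DKO replicate was the highest throughout. The fall with oxLDL 60 was 17.6-fold in Apoe-/- and 14.5-fold in DKO cells (log2 fold changes -3.91 and -3.62, SE 0.38 each; limma adjusted p = 6.06e-07 and 1.62e-06). The oxLDL 60 values correspond to 47, 36 and 40 reads in Apoe-/- and to 18, 36 and 62 reads in DKO cells, and all 12 such values of Fpr1 and Fpr2 lay within 0.05 of a whole read. With oxLDL 10 the log2 fold change was -1.54 in Apoe-/- and -1.62 in DKO cells (SE 0.38 each; limma adjusted p = 0.0224 and 0.0202). This low-dose call was lost when any of 4 Apoe-/- libraries (untreated replicates 2 and 3, oxLDL 10 replicates 1 and 3) or any of 3 DKO libraries (untreated replicate 3, oxLDL 10 replicates 1 and 2) was left out, with adjusted p up to 0.134, and with no filter on low genes (adjusted p = 0.056 and 0.0643), and in DKO cells with only the compared groups in the fit (adjusted p = 0.0966). Between the doses the log2 fold change of Fpr2 was -2.38 in Apoe-/- and -1.99 in DKO cells (limma adjusted p = 0.000385 and 0.00172). A pseudocount of 1 RPKM gave -2.90 and -2.54 for oxLDL 60 against untreated and -1.56 and -1.19 between the doses, all called.

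Cx3cr1, the receptor of fractalkine, was the most abundant of the 9 in untreated cells. Its untreated level was 147, 175 and 163 RPKM in Apoe-/- and 149, 114 and 192 RPKM in DKO cells. With oxLDL 10 it was 108, 120.2 and 100.2 RPKM in Apoe-/- and 71.3, 72.4 and 129 RPKM in DKO cells, and with oxLDL 60 it was 28.5, 30.9 and 24.04 RPKM and 19.9, 17.9 and 34.1 RPKM. The oxLDL 60 libraries of each genotype lay far below its other libraries, whereas the oxLDL 10 and untreated libraries overlapped in DKO cells through replicate 3. The mean fell 5.81-fold in Apoe-/- and 6.33-fold in DKO cells with oxLDL 60 (log2 fold changes -2.54 and -2.68, SE 0.24 each; limma adjusted p = 4.28e-07 and 2.57e-07). The step from oxLDL 10 to oxLDL 60 was -1.98 in Apoe-/- and -1.92 in DKO cells on the log2 scale (limma adjusted p = 2.75e-05 and 4.06e-05). At oxLDL 10 against untreated the log2 fold changes of -0.56 and -0.76 (SE 0.24 each) were not called (limma adjusted p = 0.175 and 0.0998). In a fit with a replicate block, which compares each library with the others of its own animal, they had SE 0.08 each and were called (adjusted p = 0.000239 and 1.88e-05). With only the compared groups in the fit the Apoe-/- value was called as well (adjusted p = 0.0172). They were also called without the 6 libraries that held Xist, at -0.57 in Apoe-/- and -0.86 in DKO cells (adjusted p = 0.00959 and 0.000813), and in DKO cells without oxLDL 10 replicate 3 alone (-1.04, adjusted p = 0.0143).

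Ccr2, the receptor of Ccl2, responded mainly to the higher dose. In Apoe-/- cells it was 7.84, 9.30 and 12.2 RPKM untreated, 6.87, 8.42 and 7.53 RPKM with oxLDL 10 and 2.59, 3.32 and 2.73 RPKM with oxLDL 60. In DKO cells it was 10.1, 7.62 and 13.1 RPKM untreated, 7.09, 6.45 and 10.2 RPKM with oxLDL 10 and 2.82, 2.45 and 4.20 RPKM with oxLDL 60. Untreated and oxLDL 10 libraries overlapped in each genotype, and the oxLDL 60 libraries were below all others. The mean was 3.40-fold lower in Apoe-/- and 3.25-fold lower in DKO cells with oxLDL 60 than untreated, and the fall from oxLDL 10 to oxLDL 60 was 1.38 and 1.31 on the log2 scale (SE 0.22 each; limma adjusted p = 0.000388 and 0.000643). With oxLDL 10 the log2 fold changes were -0.34 and -0.37 (limma adjusted p = 0.390 and 0.565). By animal, Ccr2 changed at this dose by -0.19, -0.14 and -0.69 in Apoe-/- and by -0.50, -0.24 and -0.36 in DKO cells. The limma adjusted p went as low as 0.0303 in Apoe-/- and 0.0279 in DKO cells among the alternatives, with no call. A small fall at the lower dose is therefore not excluded.

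Ccr1, a receptor of Ccl3 and Ccl5, was not called. It ranged over 4.63 to 5.28 RPKM untreated and 4.36 to 5.69 RPKM with oxLDL 60 in Apoe-/- cells, and over 3.65 to 6.14 and 3.24 to 4.75 RPKM in DKO cells. The log2 fold changes with oxLDL 60 were -0.04 (95% interval -0.47 to 0.38) and -0.30 (-0.72 to 0.13), with limma adjusted p = 0.905 and 0.311. By animal, Ccr1 changed by -0.08, 0.11 and -0.15 in Apoe-/- and by -0.37, -0.36 and -0.17 in DKO cells. The limma adjusted p of the DKO value went as low as 0.00464 among the alternatives, with no call because of the fold limit. Cxcr4, the receptor of Cxcl12, which holds haematopoietic cells in the marrow, was not called either. It ranged over 49.0 to 72.0 RPKM untreated and 48.8 to 76.6 RPKM with oxLDL 60 in Apoe-/- cells, and over 41.1 to 66.4 and 42.8 to 60.9 RPKM in DKO cells. Its log2 fold changes were -0.02 (-0.53 to 0.49) and -0.04 (-0.55 to 0.47), with limma adjusted p = 0.966 and 0.930. The signs of Ccr1 in Apoe-/- cells and of Cxcr4 in both genotypes turned positive in some alternatives, so no direction is given for them.

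C5ar1, the receptor through which C5a activates phagocytes, showed a small decrease at the higher dose. It was 21.2, 25.8 and 23.1 RPKM in untreated and 16.9, 18.1 and 17.0 RPKM in oxLDL 60 Apoe-/- libraries, and 24.8, 25.6 and 26.6 RPKM in untreated and 17.4, 14.7 and 20.9 RPKM in oxLDL 60 DKO libraries. The oxLDL 60 libraries lay below all untreated libraries in each genotype. In DKO cells the mean was 31.3% lower (log2 fold change -0.55 with SE 0.10, limma adjusted p = 0.000564), and C5ar1 was called. In Apoe-/- cells it was 25.9% lower (-0.43, SE 0.10, limma adjusted p = 0.00401), which was under the fold of 1.4, and the test of the difference between the genotypes gave -0.13 (SE 0.14, limma adjusted p = 0.769). Rescaling the libraries ended the DKO call (-0.49) and gave one in Apoe-/- cells (-0.49, adjusted p = 0.00244). The DKO call also ended without DKO oxLDL 60 replicate 2 (-0.43), and the Apoe-/- value was called without untreated replicate 1 (-0.49), in each case through the fold limit and not through the adjusted p. Rescaling also turned the difference between genotypes to 0.0076. With oxLDL 10 the levels were 22.7 to 25.5 RPKM in Apoe-/- and 25.1 to 28.7 RPKM in DKO cells, overlapping with the untreated libraries.

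Cmklr1, the signalling receptor of chemerin, was low and fell with dose. In Apoe-/- cells it was 3.46, 5.89 and 4.31 RPKM untreated, 2.30, 3.57 and 2.00 RPKM with oxLDL 10 and 1.55, 1.98 and 1.69 RPKM with oxLDL 60. In DKO cells it was 3.26, 2.99 and 2.78 RPKM untreated, 1.64, 1.76 and 1.94 RPKM with oxLDL 10 and 1.21, 1.403 and 1.11 RPKM with oxLDL 60. The DKO doses were separate, and in Apoe-/- cells replicate 2 with oxLDL 10 reached into the untreated range. The mean was 2.62-fold lower in Apoe-/- and 2.42-fold lower in DKO cells with oxLDL 60 (log2 fold changes -1.31 and -1.21, SE 0.19 each; limma adjusted p = 4.9e-05 and 0.000118). With oxLDL 10 the log2 fold changes were -0.78 and -0.73 (SE 0.19 each; limma adjusted p = 0.0193 and 0.0397), and the calls ended on leaving out any of 3 Apoe-/- libraries (untreated replicate 2, oxLDL 10 replicates 1 and 3) or any of 5 of the 6 DKO libraries, all but oxLDL 10 replicate 3, with adjusted p up to 0.166. They were also lost in Apoe-/- cells with only the compared groups in the fit (adjusted p = 0.120) and in DKO cells with a pseudocount of 1 RPKM or no filter (adjusted p = 0.0521 and 0.0954). Between the doses the log2 fold changes of -0.53 and -0.49 were not called (limma adjusted p = 0.0788 and 0.0960). They were called with a replicate block for each animal (adjusted p = 0.00343 and 0.00583), as was the Apoe-/- value without oxLDL 10 replicate 3 (-0.70, adjusted p = 0.0350) and the DKO value with only the compared groups in the fit (adjusted p = 0.0365).

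Ccrl2, an atypical receptor that binds chemerin without signalling and presents it to Cmklr1, was 4.07, 6.04 and 4.94 RPKM in untreated Apoe-/- cells and 4.66, 5.33 and 4.35 RPKM in untreated DKO cells. With oxLDL 60 it was 3.07, 4.29 and 3.19 RPKM in Apoe-/- and 3.22, 3.88 and 2.62 RPKM in DKO cells. Same-numbered libraries were lower with oxLDL 60 in 3 of 3 animals of each genotype, and the groups overlapped in Apoe-/- cells. The log2 fold changes of -0.50 and -0.56 (SE 0.21 each) missed the threshold (limma adjusted p = 0.0917 and 0.0656) and passed it with the replicate block (adjusted p = 0.00146 and 0.00063) and with only the compared groups in the fit (adjusted p = 0.0487 and 0.0282). With oxLDL 10 the log2 fold change was -0.63 in Apoe-/- cells (limma adjusted p = 0.0887, and 0.000786 with the replicate block) and -0.42 in DKO cells (limma adjusted p = 0.441). The limma adjusted p of this DKO value went as low as 0.0204 among the alternatives, with no call. At this dose Ccrl2 was lower in 3 of 3 animals of each genotype. Without the libraries that held Xist, Ccrl2 was called in Apoe-/- cells at oxLDL 10 (-0.64, adjusted p = 0.0217) and at oxLDL 60 (-0.51, adjusted p = 0.0239), and without oxLDL 60 replicate 2 it was called in DKO cells (-0.69, adjusted p = 0.0467). Rescaling also gave Apoe-/- calls at both doses, -0.70 at oxLDL 10 and -0.56 at oxLDL 60 (adjusted p = 0.0466 and 0.0449).

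**Figure D2:**
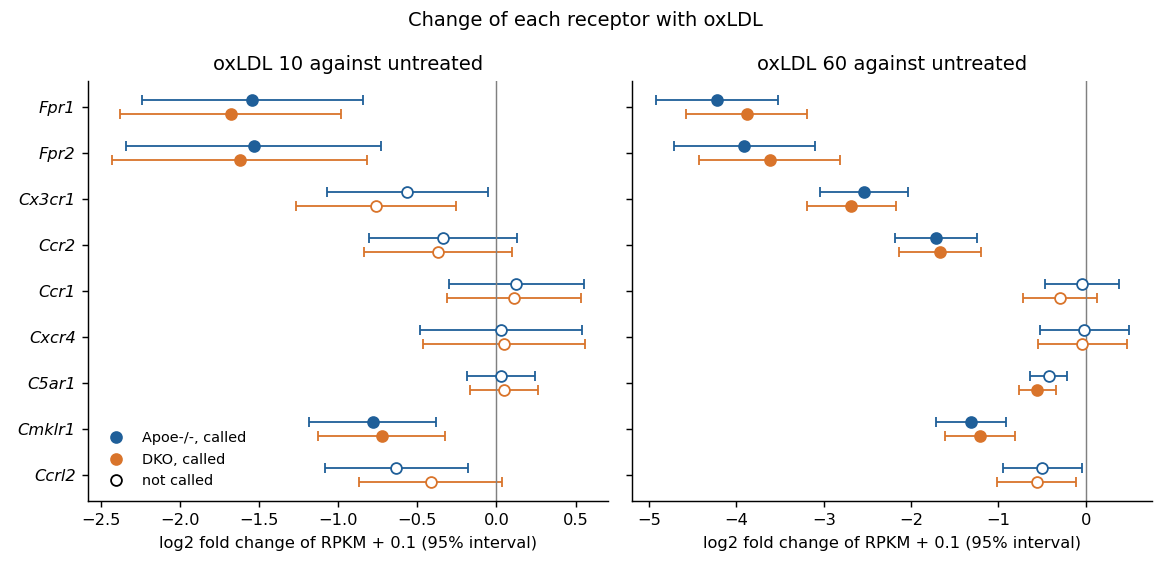
Log2 fold change of RPKM + 0.1 against untreated cells (horizontal axes) for each receptor at oxLDL 10 (left) and oxLDL 60 (right), with 95% intervals, Apoe-/- in blue and DKO in orange, filled where called. Fpr1 and Fpr2 reach -4.22 and -3.91 in Apoe-/- cells at oxLDL 60, and the intervals of Ccr1 and Cxcr4 include 0 throughout.

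At oxLDL 10, 3 receptors were called in each genotype (Fpr1, Fpr2 and Cmklr1), all lower. Over all genes tested, 2.79% were called in Apoe-/- and 2.26% in DKO cells, and 2.04% and 1.69% of all genes tested were called lower. From oxLDL 10 to oxLDL 60, 4 receptors were called in Apoe-/- cells (Fpr1, Fpr2, Cx3cr1 and Ccr2) and 5 in DKO cells (these 4 and C5ar1), again all lower. C5ar1 stood near the fold limit in this step, at -0.60 in DKO (limma adjusted p = 0.000643) and -0.45 in Apoe-/- cells (limma adjusted p = 0.00588). Its DKO call ended without oxLDL 60 replicate 2 (-0.48), and it was called in Apoe-/- cells without the libraries holding Xist (-0.51, adjusted p = 0.00193) or without oxLDL 10 replicate 3 (-0.49). The background of that step was 6.46% and 5.66% of all genes, with 3.54% and 3.74% called lower. The median log2 fold changes of the receptors were -0.56 and -0.42 at oxLDL 10 and -0.53 and -0.60 between the doses, beside medians from -0.08 to 0.07 over all genes tested. All 3 oxLDL 60 libraries lay below all 3 untreated libraries for 6 receptors in Apoe-/- and for 7 in DKO cells, which held for 14.9% and 28.3% of all genes. An exact two-sided permutation test of 3 against 3 libraries cannot go below p = 0.1, so single receptors were tested only in the fit over all genes.

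The order of the receptors by RPKM changed with the dose. In untreated Apoe-/- cells Cx3cr1 (161 ± 14.0 RPKM, mean ± SD, n = 3) was above Cxcr4 (64.0 ± 13.0) and Cxcr4 above C5ar1 (23.3 ± 2.33), with no overlap of libraries. Fpr2 (11.8 ± 3.29), Ccr2 (9.78 ± 2.22) and Fpr1 (8.80 ± 1.47) followed and overlapped with each other, as did Ccrl2 (5.01 ± 0.985), Ccr1 (4.94 ± 0.324) and Cmklr1 (4.55 ± 1.23). With oxLDL 60 Cxcr4 (63.3 ± 13.9) led, ahead of Cx3cr1 (27.8 ± 3.47) and C5ar1 (17.3 ± 0.663), and Fpr2 (0.669 ± 0.053) and Fpr1 (0.381 ± 0.119) were last. DKO cells had the same leading receptor at each dose, with Cx3cr1 at 152 ± 38.8 RPKM untreated and Cxcr4 at 49.7 ± 9.76 RPKM with oxLDL 60, where Cx3cr1 (23.97 ± 8.86) and C5ar1 (17.6 ± 3.12) overlapped. The summed RPKM of the 9 receptors went from 294 ± 36.7 untreated to 225 ± 34.5 with oxLDL 10 and 122 ± 17.9 with oxLDL 60 in Apoe-/- cells, and from 267 ± 60.0 to 194 ± 50.3 and 104 ± 21.5 in DKO cells. Cx3cr1 made up 55.2% of the sum in untreated and 22.9% in oxLDL 60 Apoe-/- cells, and Cxcr4 21.6% and 51.4%. In DKO cells the shares were 56.5% and 22.6% for Cx3cr1 and 19.2% and 47.9% for Cxcr4, whose own RPKM was not called as changed.

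**Figure D3:**
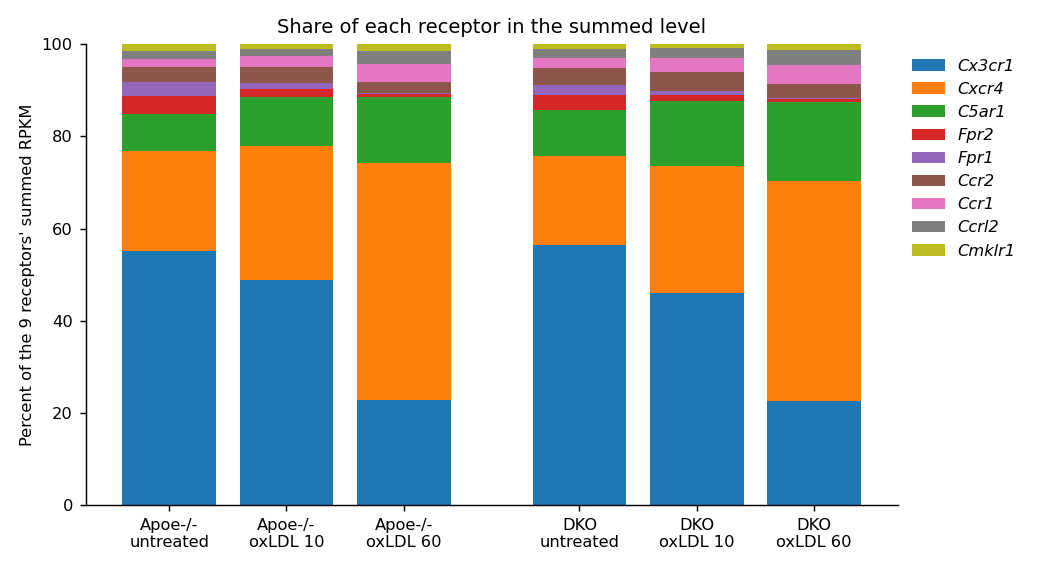
Percent of the summed RPKM of the 9 receptors taken by each (stacked bars, means of 3 libraries) in the 6 groups. The Cx3cr1 share goes from 55.2% to 22.9% in Apoe-/- and from 56.5% to 22.6% in DKO cells, and the Cxcr4 share from 21.6% to 51.4% and from 19.2% to 47.9%.

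No receptor was called between genotypes at any dose, and none differed in its response to oxLDL 60. DKO against Apoe-/- called 0 of 9 untreated, 0 of 9 with oxLDL 10 and 0 of 9 with oxLDL 60 by limma, against 0.210%, 0.0857% and 0.125% of all genes, and the receptors with an unadjusted p under 0.05 numbered 1, 2 and 1. The difference between genotypes in the change with oxLDL 60 was called for 0 of 9 receptors and 0.0156% of all genes, with no receptor at an unadjusted p under 0.05. The widest of these intervals was that of Fpr2, at 0.29 (95% interval -0.85 to 1.43), and that of Fpr1 was 0.34 (-0.65 to 1.33). Both estimates turned to -0.02 and -0.03 without DKO oxLDL 60 replicate 3. Differences smaller than these intervals were not detectable with 3 libraries in each group.

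Cmklr1 came closest to a difference between genotypes. All 3 DKO libraries lay below all 3 Apoe-/- libraries at each dose, as 1.23% of all genes did untreated, 3.12% with oxLDL 10 and 12.0% with oxLDL 60. The mean was 33.9%, 32.1% and 28.6% lower in DKO cells, with log2 fold changes of -0.55, -0.50 and -0.45 (SE 0.19 each). None passed the correction, with limma adjusted p = 0.175 untreated, 0.480 with oxLDL 10 and 0.586 with oxLDL 60 (unadjusted 0.00999, 0.0185 and 0.0287). With 1 library left out they ranged from -0.73 to -0.35 untreated, from -0.66 to -0.26 with oxLDL 10 and from -0.54 to -0.36 with oxLDL 60. Apoe-/- replicate 2 held 1.52, 1.66 and 1.22 times the mean Cmklr1 level of the other Apoe-/- libraries at the 3 doses. The doses share their animals, so the 3 comparisons are not independent of each other.

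Fpr1 depended on the animals compared. Its mean was 33.3% lower in DKO than in Apoe-/- cells untreated and 39.2% lower with oxLDL 10 (log2 fold changes -0.63 and -0.77, SE 0.33 each; limma adjusted p = 0.334 and 0.493), with overlapping libraries. Without the 6 libraries that held Xist, leaving 2 animals in each genotype, the log2 fold changes were -0.86 and -1.002 (SE 0.16 each) and Fpr1 was called (adjusted p = 0.0101 and 0.00925). Cx3cr1 with oxLDL 10 went from -0.32 (SE 0.24, limma adjusted p = 0.660) to -0.53 (SE 0.12, adjusted p = 0.0478) in the same way. The gain in calls was not particular to these receptors. Over all 12838 genes tested, genotype calls went from 27 to 308 untreated and from 11 to 110 with oxLDL 10. The left-out animals differed from the others in more than Xist. Their summed stromal markers were the lowest of their genotype at every dose, 1.21 RPKM in Apoe-/- untreated replicate 2 against 13.1 and 8.88, and 1.55 RPKM in DKO untreated replicate 3 against 3.85 and 5.30. The classical monocyte markers were lowest in them too (12.0 against 15.4 and 16.9 RPKM, and 12.4 against 25.6 and 19.1 RPKM), and the macrophage markers highest (11764 against 8932 and 11187 RPKM, and 10951 against 8383 and 9152 RPKM), again at every dose. Lyz2 made up most of the macrophage sum. The part of sex and of these markers in the result was not tested.

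Libraries with the same number within a genotype moved together, which bears on how the levels spread. DKO replicate 3 had the highest level of its genotype at all 3 doses for 6 receptors (Ccr2, Cx3cr1, Cxcr4, C5ar1, Fpr1 and Fpr2) and the lowest for Ccr1 and Ccrl2, where 8.43% and 32.0% of all genes tested did so. Its Fpr1 level was 1.90, 2.13 and 2.76 times the mean of the other DKO libraries untreated, with oxLDL 10 and with oxLDL 60, and its Fpr2 level 2.34, 2.03 and 2.07 times. Apoe-/- replicate 2 was the highest of its genotype throughout for 5 receptors (Ccr1, Cx3cr1, Ccrl2, Fpr1 and Cmklr1), against 7.91% of all genes. From untreated to oxLDL 60 Fpr1 changed by -3.92, -4.03 and -4.72 on the log2 scale in the 3 Apoe-/- animals and by -3.90, -4.00 and -3.75 in the 3 DKO animals. For Cx3cr1 these changes were -2.36, -2.50 and -2.75 in Apoe-/- and -2.90, -2.67 and -2.49 in DKO animals, a fall in 6 of 6.

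**Figure D4:**
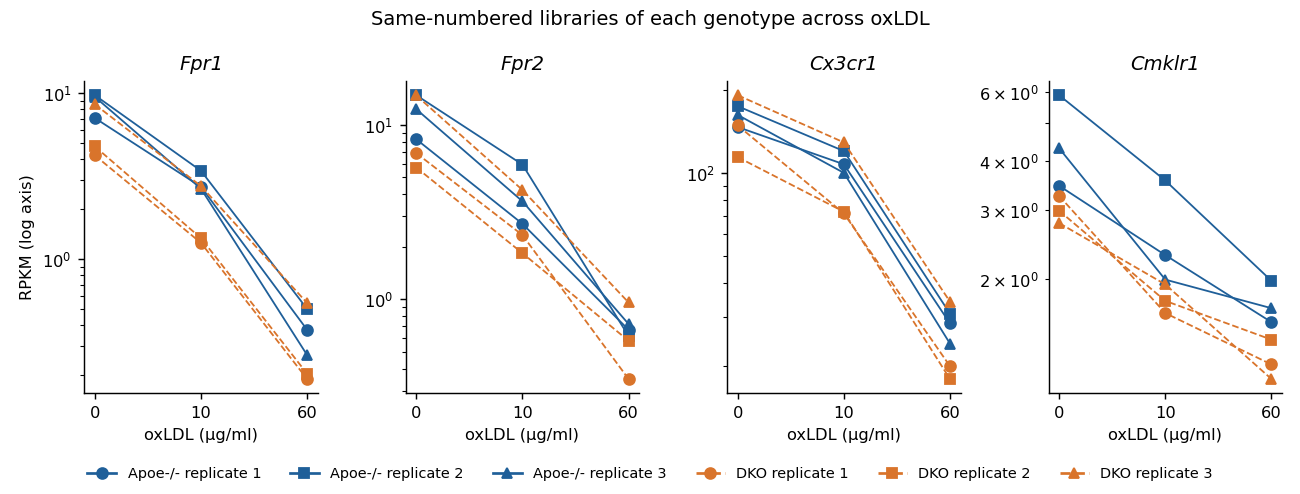
RPKM (log axes) of Fpr1, Fpr2, Cx3cr1 and Cmklr1 at 0, 10 and 60 µg/ml oxLDL, spaced evenly, with lines joining same-numbered libraries of Apoe-/- (blue, solid) and DKO cells (orange, dashed). Every line falls at each step, and the line of DKO replicate 3 lies above the other DKO lines for Fpr1, Fpr2 and Cx3cr1.

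Fpr1 and Fpr2 are also abundant in neutrophils, and Ccr2 in classical monocytes, so the markers of these cells were set beside them. Of 10 neutrophil markers tested, 0 were called by limma with oxLDL 60 in either genotype, and 0 had an unadjusted p under 0.05. In DKO replicate 3, which had the highest Fpr1 and Fpr2 of its genotype, the summed neutrophil markers were 49.2, 52.6 and 45.8 RPKM at the 3 doses. The other DKO libraries held 58.4 to 97.7 RPKM. In Apoe-/- cells the sums were 47.7 to 65.5 RPKM untreated and 48.1 to 53.5 RPKM with oxLDL 60. The part of neutrophils in the levels and the fall of Fpr1 and Fpr2 was not tested. Among 5 classical monocyte markers, Vcan was called lower with oxLDL 60 in both genotypes and Ly6c2 in DKO cells. Their summed level was 8.71 to 15.3 RPKM with oxLDL 60 against 12.0 to 16.9 RPKM untreated in Apoe-/- cells, and 8.30 to 18.7 against 12.4 to 25.6 RPKM in DKO cells. Their part in the fall of Ccr2 was not tested. Of the 8 macrophage markers, 4 were called lower in Apoe-/- and 3 in DKO cells with oxLDL 60, Cd14, Lyz2 and Fcgr1 in both, and Mertk was called higher in both.

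Over the 18 libraries, Fpr1, Fpr2, Cx3cr1 and Ccr2 had pairwise Pearson correlations of 0.94 to 0.99 in log2(RPKM + 0.1). These and the following correlations describe libraries that share doses and animals, over 10101 genes with a mean of at least 1 RPKM. The genes most like Fpr1 were Fam102b (r = 0.99), Fpr2 (0.99) and Ifit1bl1 (0.98), and those most like Fpr2 were Phf8, Fpr1 and Ptprj (0.99 each). For Cx3cr1 they were Nadk, Marcksl1 and Nfam1 (0.99 each), and for Ccr2 Pid1 (0.99), Rnd3 (0.99) and Nfam1 (0.98). C5ar1 was most like Lfng (0.94), Gpr183 (0.93) and Rasa1 (0.92), and Cmklr1 most like Aoah (0.95), Acod1 (0.95) and Pik3r6 (0.93). Among the receptors that were not called, Cxcr4 was most like Gpr146 (0.96), Abca9 (0.95) and F13a1 (0.94). Ccrl2 was most like Slc11a2 (0.90), Egr2 and Alas1 (0.88 each), and Ccr1 most like Creg2 (0.86), Dppa3 and Mid1ip1 (0.80 each).

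Other chemoattractant receptors were measured for comparison. Of a list of 30, 25 were in the table and 12 passed the filter, and with oxLDL 60 the calls were 0 higher and 3 lower in Apoe-/- and 1 higher and 2 lower in DKO cells, where 13.9% and 12.2% of all genes were called. The median log2 fold change of the 12 was -0.23 in Apoe-/- and -0.20 in DKO cells. C3ar1, the receptor of the complement fragment C3a, fell from 133 ± 18.7 to 59.3 ± 2.70 RPKM and from 135 ± 12.0 to 62.6 ± 3.13 RPKM (-1.15 and -1.10, SE 0.09 each; limma adjusted p = 4.46e-08 and 8.83e-08). Ccr3, an eotaxin receptor, fell by 1.31 and 1.11 on the log2 scale from a level of 1.53 and 1.57 RPKM (-0.70 and -0.61 with a pseudocount of 1 RPKM). Cxcr3, the receptor of Cxcl9 and Cxcl10, was called lower in Apoe-/- (-0.67) but not in DKO cells (-0.25, limma adjusted p = 0.256), and Ptafr, the receptor of platelet-activating factor, was called higher in DKO (0.51) and was 0.37 in Apoe-/- cells, under the fold limit. The DKO call of Ptafr was lost through the fold limit without untreated replicate 3 or oxLDL 60 replicate 1 (0.48 each), and the Apoe-/- call of Cxcr3 with a pseudocount of 1 RPKM (-0.34). In the test of the difference between genotypes Cxcr3 was 0.43 (SE 0.21, limma adjusted p = 0.515) and Ptafr 0.14 (SE 0.16, limma adjusted p = 0.772). C5ar2, the second C5a receptor, was at 0.267 to 0.475 RPKM in the group means and was not called.

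Several ligands of the receptors fell with oxLDL 60. Of 18 listed, 14 passed the filter, and 6 of these were called lower in each genotype and 0 higher, where 6.78% and 7.31% of all genes were called lower. The other 8 were not called, and the list had median log2 fold changes of -0.86 in Apoe-/- and -0.71 in DKO cells. Saa3, an acute-phase protein of the serum amyloid A family that ligates Fpr2, fell from 50.3 ± 20.8 to 1.77 ± 0.068 RPKM in Apoe-/- and from 30.4 ± 11.9 to 3.44 ± 3.77 RPKM in DKO cells (log2 fold changes -4.67 and -3.59, SE 0.54 each; limma adjusted p = 4.49e-06 and 8.68e-05). The DKO value rested in part on oxLDL 60 replicate 3, at 7.78 RPKM beside 1.56 and 0.981 RPKM in the others, and was -4.44 without it. Cx3cl1, the ligand of Cx3cr1, was low and went from 2.56 ± 0.497 to 0.708 ± 0.129 RPKM and from 3.04 ± 0.807 to 0.785 ± 0.166 RPKM (-1.71 and -1.81, SE 0.19 each; limma adjusted p = 2.76e-06 and 1.59e-06). With a pseudocount of 1 RPKM these were -1.05 and -1.17. The inflammatory CC chemokines Ccl3, Ccl4 and Ccl5, of which Ccl3 and Ccl5 bind Ccr1, all fell, with log2 fold changes of -1.76, -1.29 and -2.80 in Apoe-/- and -1.81, -1.45 and -2.44 in DKO cells (for Ccl5 -2.15 and -1.87 with a pseudocount of 1 RPKM). Ccl9, another Ccr1 ligand, fell from 485 ± 67.5 to 201 ± 19.0 RPKM and from 486 ± 55.4 to 209.9 ± 6.00 RPKM (-1.26 and -1.21, SE 0.11 each). Ccl2, the main ligand of Ccr2, was not called, at 207 ± 68.1 RPKM untreated and 203 ± 93.9 RPKM with oxLDL 60 in Apoe-/- and 404 ± 219 and 291 ± 115 RPKM in DKO cells. Cxcl12 and the chemerin gene Rarres2, which supply ligands of Cxcr4 and Cmklr1, had group means of at most 0.105 and 0.045 RPKM, so the cells held little transcript for either ligand.

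**Figure D5:**
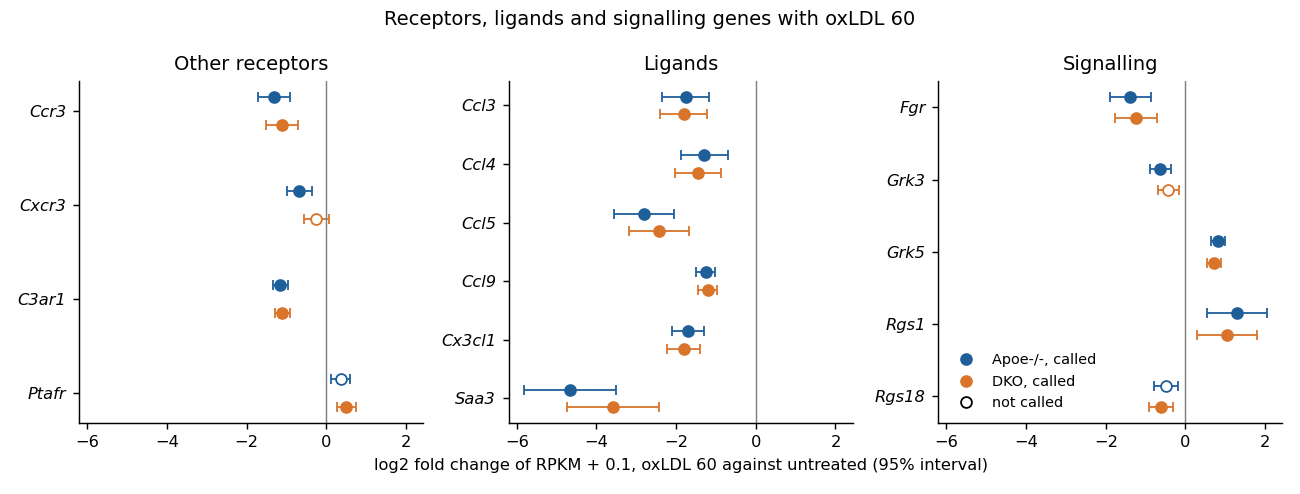
Log2 fold change of RPKM + 0.1 with oxLDL 60 against untreated cells (horizontal axes) with 95% intervals for the named other receptors, ligands and signalling genes, Apoe-/- in blue and DKO in orange, filled where called. The 6 ligands lie from -4.67 (Saa3) to -1.21 (Ccl9), and Rgs1 and Grk5 lie above 0.

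Most genes that act below the receptors were not called. All 24 listed passed the filter, with 3 called higher and 3 lower in Apoe-/- and 2 higher and 6 lower in DKO cells, and medians of -0.10 and -0.23. Over all genes tested, 7.13% were called higher and 6.78% lower in Apoe-/- cells, and 4.87% and 7.31% in DKO cells. Fgr, a Src-family kinase of phagocytes, went from 6.64 ± 1.73 to 2.43 ± 0.205 RPKM in Apoe-/- and from 6.09 ± 2.07 to 2.46 ± 0.583 RPKM in DKO cells (log2 fold changes -1.38 and -1.25, SE 0.25 each; limma adjusted p = 0.000382 and 0.00108). Grk5, a kinase that desensitises activated receptors, rose by 0.81 (SE 0.08) and 0.71 (SE 0.08). Grk3, of the same kinase family, was called lower in Apoe-/- cells (-0.64, and -0.41, under the fold limit, with a pseudocount of 1 RPKM) and was -0.43 in DKO cells, under the fold limit. Rgs1, which ends signalling by G proteins, rose from 34.4 ± 3.12 to 84.9 ± 14.8 RPKM in Apoe-/- cells (log2 fold change 1.29, SE 0.36, limma adjusted p = 0.0106). In DKO cells it went from 59.3 ± 23.5 to 120.4 ± 42.2 RPKM (1.05, SE 0.36, limma adjusted p = 0.0390), and that call was lost without DKO untreated replicate 3 (0.65, adjusted p = 0.198), without oxLDL 60 replicate 1 (0.92, adjusted p = 0.124) or without oxLDL 60 replicate 2 (0.84, adjusted p = 0.151), and with no filter or only the compared groups (adjusted p = 0.0857 and 0.0860). Rgs18, a regulator of the same family, was called lower in DKO cells (-0.62) and was -0.48 in Apoe-/- cells, under the fold limit. Leaving out DKO untreated replicate 3 ended the DKO call (-0.48), and leaving out Apoe-/- untreated replicate 1 or 2 or oxLDL 60 replicate 2 gave a call in Apoe-/- cells (-0.53, -0.54 and -0.51), as did rescaling (-0.55, adjusted p = 0.0128) and leaving out the libraries that held Xist (-0.57, adjusted p = 0.00111). The difference between genotypes was 0.21 (SE 0.18, limma adjusted p = 0.684) for Grk3 and -0.14 (SE 0.20, limma adjusted p = 0.827) for Rgs18.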

How the data were processed

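The authors deposited RPKM values for each gene and library. Per the submitters' processing notes they used STAR and the mm10 build, and the study's methods also name an RNA-SeQC and a Subread step; the settings of counting and the annotation are not given in the sources used here, and the labels name more than 1 sequencing platform. Symbols were used as deposited. Values were tested as log2(RPKM + 0.1), which understates the change of low genes, with limma 3.58.1 (R 4.3.3) in 1 fit of 6 group means over 18 libraries, with a trended prior and Benjamini-Hochberg adjustment within each of 10 comparisons. Genes had at least 0.1 RPKM in at least 3 libraries; a call needed adjusted p under 0.05 and a fold of at least 1.4. The script was tested on simulated data. Python 3.11.15, pandas 2.3.3 and matplotlib 3.10.9 made the summaries. The receptors and gene lists were chosen with earlier results of these data known. Named from each list were genes called with oxLDL 60 in at least 1 genotype with a group mean of at least 1 RPKM, at most 6 by size of change, plus C3ar1, C5ar2, Ccl2, Cxcl12 and Rarres2, and for each receptor the 3 genes most correlated with it; some genes of these lists are not reported here. Replicates are labelled biological, and p-values measure the spread between these samples. Within a genotype, deviations from group means correlated in all 18 same-numbered pairs (0.183 to 0.695, median 0.405; other numbers, median -0.347), so a number was taken to mark 1 animal; across genotypes the same-number median was -0.168. Read numbers and depths were derived from RPKM steps and exon lengths, and a limit of 3 reads on 1 kb is 0.0554 to 0.0756 RPKM, covering counting error only. Alternatives were another pseudocount, no filter, rescaling by median ratios, only the compared groups, no fold limit, a replicate block, each library left out, and the libraries holding Xist left out. The authors' tests on counts were not repeated, since only RPKM values were used.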

Additional observations from a re-analysis of the deposited data

How the results depend on the processing

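Over 87 values and 1179 alternative results, 1092 kept their direction and side of the threshold, 35 lost a call, 37 gained one and 15 changed sign, none of them a called value. Against untreated cells, the oxLDL 60 calls of Fpr1, Fpr2, Cx3cr1, Ccr2 and Cmklr1 held in every alternative run. With the replicate block, the pairing by animal raised the Apoe-/- oxLDL 10 count from 3 to 5 receptors, and calls over all genes from 358 to 528. The block gained the 7 calls of Cx3cr1, Ccrl2 and Cmklr1 given with those receptors and changed no other. Without the libraries holding Xist, the Apoe-/- oxLDL 10 count was 5, with 428 calls over all genes. The genotype counts were then 1 untreated and 2 with oxLDL 10, while calls over all genes went from 27 to 308 and from 11 to 110. The DKO oxLDL 10 count was 1 with no filter on low values and 1 with only the compared groups in the fit. Calls over all genes were 235 and 236 there, against 290 with the settings unchanged. With 1 library left out, the oxLDL 10 counts ranged from 1 to 3 in Apoe-/- and from 1 to 4 in DKO cells. Calls over all genes ranged from 267 to 410 and from 185 to 361, and the reasons were not tested. Cxcr4 in DKO cells at oxLDL 60 was 0.028 after rescaling and 0.0015 without the libraries holding Xist. With 1 library left out, the oxLDL 60 log2 fold change ranged from -0.17 to 0.0237 for Ccr1 in Apoe-/- cells and, for Cxcr4, from -0.20 to 0.16 in Apoe-/- and -0.19 to 0.16 in DKO cells, and the difference between genotypes in that change from -0.0341 to 0.64 for Fpr1, -0.0213 to 0.70 for Fpr2 and -0.25 to 0.0051 for Rgs18; that of C5ar1 was 0.0076 after rescaling. Rescaling moved the median interaction of all genes from -0.11 to 0.01. The depth leaves Fpr1 at 10 to 36 reads with oxLDL 60, so its fold carries the counting error of those reads.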
